A study of Mus musculus with 3 samples.

Results

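The genes described here read high in fetal liver that lacks the nuclease DNase II and close to wild-type in fetal liver that lacks both DNase II and the interferon receptor. They were selected on the measured values themselves. Deposited array values under 0.16 were raised to 0.16, and a probe with a single gene symbol was taken where the DNase II-deficient array read above 1 and at least 3 times wild-type while the double-deficient array read at most 1.5 times wild-type. Symbols with 16 prefixes that mark large interferon, antigen-presentation, heat shock and binding-protein families (such as Ifi, Oas, Irf, H2-, Hspa and Igfbp) were left out. The choice returned 104 probes for 102 genes, of 15035 probes for 13697 genes with a symbol and a value in every array. The double-deficient embryos lack DNase II as well, so these genes are not a group that is high wherever the nuclease is missing; they are high in 1 of the 2 arrays without it.

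Poly(A) RNA selected from fetal livers of E14.5 mouse embryos was hybridised to 3 single-colour CodeLink arrays, 1 for each genotype: DNase II-deficient, double-deficient (without DNase II and without IFN-IR, taken here as the type I interferon receptor), and wild-type. The labels name neither strain nor alleles nor how many embryos an array stands for. With a lone array for each genotype no difference below has a replicate check or a test, and a spot that read high by error on the DNase II-deficient array would be chosen in the same way as a gene that was high in the tissue. The number of arrays limits the precision, and because the members were chosen on all 3 contrasts, their ratios are descriptions and not evidence.

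DNase II digests, in the lysosomes of macrophages, the DNA of engulfed cells and of the nuclei that maturing red cells expel. Undigested DNA is a known trigger of type I interferon, whose receptor IFN-IR switches on genes that carry an interferon-stimulated response element. Fetal liver at this stage is chiefly a blood-forming organ, holding erythroblasts, macrophages, hepatoblasts and a stroma of endothelial and stellate cells, so a level in whole liver mixes all of them. Fewer cells of a type and less RNA per cell cannot be told apart in such bulk RNA.

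The array medians were 0.959, 0.964 and 0.958 in the DNase II-deficient, double-deficient and wild-type arrays. Dnase2a, the gene for DNase II, read 48.6, 39.7 and 40.4 in that order, and the probes for the receptor chains Ifnar1 and Ifnar2 read 4.66, 3.17 and 3.60, and 0.485, 0.483 and 0.574. None was at the floor in a mutant array. The position of each probe against its deletion is unknown, so these readings check no genotype, and the genotypes rest on the labels. Hepatocyte markers were bright in every array, with summed levels of 3585, 3212 and 3557 over 10 genes, none of them 3-fold different in the DNase II-deficient array. Markers of other cells did differ. The summed level of 9 erythroid markers was 1505, 1797 and 1952, most of it Hbb-bt and Hba-a1. In the DNase II-deficient array 2 of the 9 were at least 3-fold lower, as were 0.927% of all genes. The list's median log2 difference from wild-type was -1.22 there, beside -0.15 over all genes, and -0.21 in the double mutant, beside -0.05. For 13 granulocyte and mast cell markers the sum was 790.6, 639.0 and 281.4. Camp, Ltf, Ngp and Prtn3 were the 4 at least 3-fold higher in the DNase II-deficient array, beside 2.46% of all genes. Cpa3 and Mcpt8 of the same list were lower there than in wild-type, at 1.43, 2.98 and 2.35, and 1.32, 3.07 and 2.14. The part of such shifts in the members' levels was not tested.

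Sequences before the gene start are shown first for members whose promoter holds the letters read by interferon-activated or oxygen-regulated factors. Promoters, 250 bases before to 50 bases after the start, came from RefSeq on build GRCm38.p6. The core of the interferon-stimulated response element, searched as GAAANNGAAA on both strands, is in capitals in the next lines, which show the light chain of MHC class I, a tudor-domain protein of RNA granules and vascular endothelial growth factor A.
B2m, chr2:122147528-122147577, plus strand: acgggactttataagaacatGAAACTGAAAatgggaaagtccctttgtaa
Tdrd7, chr4:45972086-45972135, plus strand: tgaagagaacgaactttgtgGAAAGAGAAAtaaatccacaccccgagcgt
Vegfa, chr17:46032490-46032539, minus strand: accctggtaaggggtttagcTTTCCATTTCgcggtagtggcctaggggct
The matches begin 139, 191 and 142 bases before the start. In B2m a match to GGGAANNNCC, the letters of an NF-kB site, begins 127 bases before the start and follows the interferon element without overlapping it.

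The next lines show the letters ACGTG, the core read by hypoxia-inducible factors, searched on both strands, in members linked to low oxygen or glucose use.
Bnip3, chr7:138909589-138909633, minus strand: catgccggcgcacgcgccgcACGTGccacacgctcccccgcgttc
Ero1a, chr14:45318611-45318655, minus strand: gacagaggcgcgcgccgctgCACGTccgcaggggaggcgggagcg
Hilpda, chr6:29272563-29272607, plus strand: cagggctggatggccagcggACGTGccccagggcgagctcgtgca
Hk2, chr6:82774482-82774526, minus strand: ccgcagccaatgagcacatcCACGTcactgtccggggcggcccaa
Pkm, chr9:59657132-59657176, plus strand: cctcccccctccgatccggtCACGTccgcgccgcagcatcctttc
Aldoa, chr7:126799356-126799400, minus strand: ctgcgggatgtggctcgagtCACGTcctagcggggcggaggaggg
In Bnip3 the letters read the same on both strands and make 2 overlapping matches, 107 and 108 bases before the start, which also spell an E-box. Hk2 holds a second match 226 bases before its start. Ppp1r3g and Vegfa hold the letters too, while Adm, Efna1, Gys1, Pgf, Stc2 and Vldlr have a promoter in the table without them. So short a core is common, in 21.8% of all genes of the table. A match is a description of letters and not of a bound site.

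Across all members the motif shares are void, since the promoter table held 74 of the 102 genes, or 72.5%, under the minimum of 80% set for such a share. The interferon-inducible members described below could be read, with 21 of 26 genes in the table. The interferon element core was in 5 of these 21 genes, or 23.8% (Wilson 95% interval 10.6 to 45.1, counting error only), against 3.99% of the 27025 genes of the promoter table. Counted by promoter, since these genes have 1.62 promoters each against 1.22 in the table, it was in 5 of 34, or 14.7%, against 3.44% of all 32851 promoters. In the 250 bases before the start alone it was in 2 of the 21 genes, or 9.52% (interval 2.65 to 28.9), against 3.46%, a base that lies inside the interval. The 5 genes were B2m, Ddx58, Eif2ak2, Shisa5 and Tdrd7. Genes of the group not in the table are Il15, Ly6e, Rtp4, Tor3a and Usp18. Of the low-oxygen and glucose members 14 of 18, or 77.8%, were in the table, so their share is void too.

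Members were of very unequal brightness. In the DNase II-deficient array their probes read between 1.02 and 456 with a median of 4.25, against 0.0546 to 121 with a median of 0.949 in the double-deficient array and 0.0333 to 111 with a median of 0.837 in wild-type. In wild-type 55 of the 104 probes lay below the array median, and 9 were at or under 0.16, where the ratio to wild-type is only a lower bound. The ratio of DNase II-deficient to wild-type had a median of 4.15, and 19 probes reached 10-fold.

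**Figure D1:**
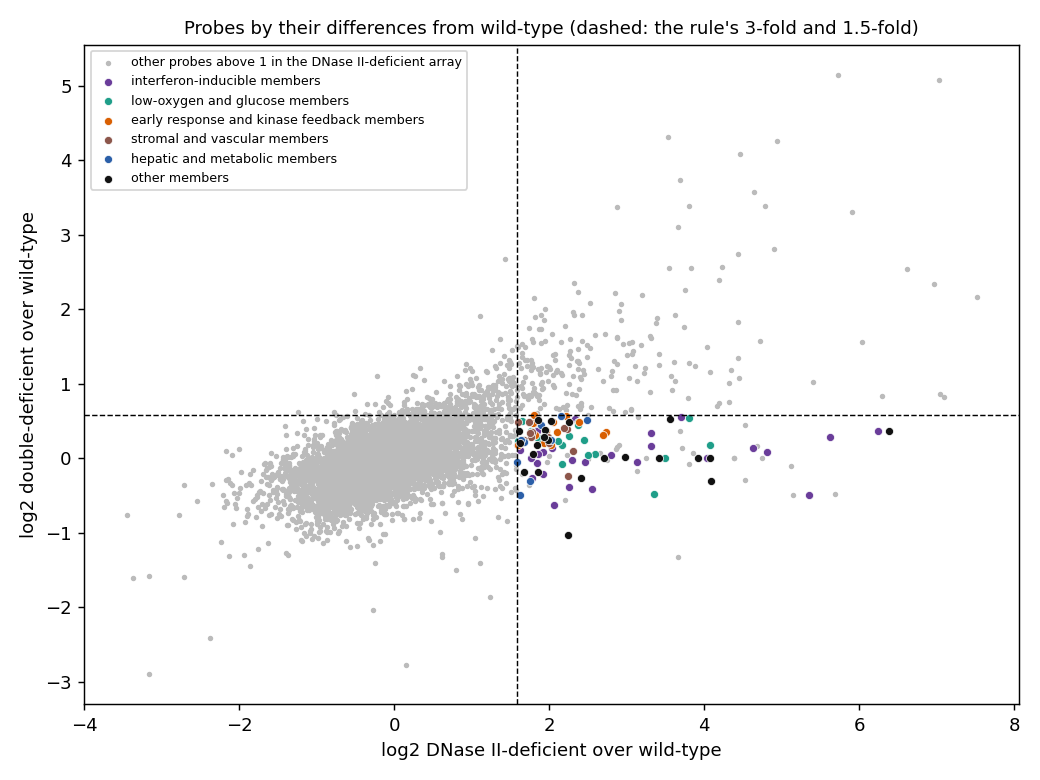
Each point is a probe with a single gene symbol that read above 1 in the DNase II-deficient array, placed by its log2 ratio of DNase II-deficient over wild-type (x) and of double-deficient over wild-type (y). Coloured points are the 104 member probes by functional group, and dashed lines are the rule's 3-fold and 1.5-fold limits. Grey points right of the 3-fold line but not above the 1.5-fold line carry left-out symbols. Those above both lines are probes of any symbol that exceeded the limit on the double-deficient array.

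Of all 13697 genes, 337 were at least 3-fold higher and above 1 in the DNase II-deficient array than in wild-type, or 2.46%, and the members are by choice among them. Among the 280 such probes outside the left-out symbols, 104 (37.1%) met the limit on the double-deficient array and 176 exceeded it. Those 176 probes had a median double-deficient over wild-type ratio of 2.37, with a highest value of 35.5. The left-out symbols held another 31 genes that met the same numbers, led by Irf7 at 193, 2.68 and 3.75 in the DNase II-deficient, double-deficient and wild-type arrays.

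The largest group with a shared role was formed by 26 genes known to be induced by interferon, a grouping made from textbook knowledge with the member list in view. Their probes had a median level of 13.6 in the DNase II-deficient array, 1.66 in the double-deficient array and 1.71 in wild-type. The median ratio to wild-type was 5.27 in the DNase II-deficient array, and 9 of the 26 were at least 10-fold. A list of type I interferon-stimulated genes outside the left-out symbols had 35 measured genes, of which 26 were at least 3-fold higher in the DNase II-deficient array and none 3-fold lower, against a background of 2.46% higher. Members made up 19 of those 26. Against wild-type the list's median log2 difference was 2.30 in the DNase II-deficient array and 0.08 in the double mutant, beside -0.15 and -0.05 over all genes (the first is 0.01 after cyclic loess scaling). Double mutant against DNase II-deficient gave a list median of -2.32, beside 0.09.

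One set regulates the interferon pathway and the ubiquitin-like protein ISG15. Usp18, which removes ISG15 from proteins and restrains the interferon receptor, read 55.3 in the DNase II-deficient array, 2.09 in the double-deficient array and 1.98 in wild-type, 28.0-fold higher than wild-type. The double mutant stood at 1.05 times wild-type. Uba7, the enzyme that activates ISG15, read 16.4, 2.55 and 3.94, and Herc6, the ligase that attaches it in the mouse, read 7.08, 0.789 and 0.707. As members, these enzymes of the ISG15 cycle are high in the DNase II-deficient array and not far above wild-type in the double mutant by choice. Ube2l6, another ISG15 enzyme on the interferon list and no member, read 36.1, 31.7 and 39.7, 0.91 times wild-type in the DNase II-deficient array. The ubiquitin ligases Rnf213 and Rnf114 read 63.6, 7.15 and 4.90, and 10.3, 2.36 and 2.72.

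Sensors and editors of nucleic acid followed. Ddx58, which encodes RIG-I, the cytosolic sensor of viral RNA, read 42.9, 5.43 and 4.28 in the DNase II-deficient, double-deficient and wild-type arrays, 10-fold higher than wild-type. Adar, which deaminates adenosine in double-stranded RNA, read 8.40, 1.08 and 1.43. Eif2ak2, the RNA-dependent kinase PKR that stops translation, read 2.03, 0.326 and 0.428. Trex1, the exonuclease that degrades DNA in the cytosol, read 10.9, 2.91 and 3.05, a level in the double mutant slightly below wild-type. Its neighbour Shisa5, an endoplasmic reticulum protein linked to p53-dependent death, read 22, 7.71 and 7.14. On chromosome 9 of GRCm38.p6 the annotated end of Shisa5 (109038567 to 109057792) lies 140 bases from that of Trex1 (109057932 to 109059723), which makes them the closest pair of members. Helz2, a helicase and coactivator of nuclear receptors, read 7.55, 2.73 and 2.11.

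Sp100 had the largest ratio of any member with a wild-type reading above the floor. This scaffold of PML nuclear bodies read 18.8 in the DNase II-deficient array, 0.319 in the double-deficient array and 0.247 in wild-type, 76.1-fold higher than wild-type and 58.9-fold higher than the double mutant. Daxx, a histone H3.3 chaperone found in the same bodies, read 29.7, 7.17 and 8.63. The gene Pml itself, which is no member, read 33.3, 17.7 and 26.2 on its brighter probe. That is 1.27 times wild-type in the DNase II-deficient array and 0.677 times in the double mutant. The other Pml probe was under the floor in every array. Xaf1, a partner of the caspase inhibitor XIAP, was under the floor in the double-deficient and wild-type arrays and read 2.64 in the DNase II-deficient array, at least 16.5-fold higher.

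Surface and secreted proteins held both the brightest and some of the dimmest of the group. B2m, the light chain of MHC class I shown above, was the brightest of all members at 456, 121 and 111. Ly6e, a GPI-anchored surface protein, read 95.1, 26.6 and 25.2, and the secreted glycoprotein Lgals3bp read 86.1, 15.1 and 15.6. These bright genes had ratios of only 3.77 to 5.50 to wild-type, well under those of the dimmer Sp100 and Rtp4. Ms4a4c and Ms4a4b, membrane proteins of leukocytes, read 35.7, 0.887 and 0.726, and 2.08, 0.227 and 0.236. They lie 16.3 kb apart on chromosome 19 (11404717 to 11427246 and 11443558 to 11463549), and cross-hybridisation between such related copies was not tested. Il15, a cytokine of natural killer cells, read 3.07, 0.872 and 0.844. Fcgr1, the high-affinity IgG receptor of macrophages, read 21.3, 6.03 and 4.22.

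Fcgr1 is also on the list of macrophage markers, where 3 of 16 measured genes were at least 3-fold higher in the DNase II-deficient array and 3 were at least 3-fold lower, against backgrounds of 2.46% and 0.927%. The summed level of the 16 was 240.1, 219.6 and 197.4. Cd14 and Itgam, the other higher markers, exceeded the double-mutant limit at 1.93 and 1.61 times wild-type, while the lower ones were Marco, Cd5l and Clec4f. Adgre1, the F4/80 antigen, read 0.282, 0.271 and 0.269. The part of macrophage number in the level of Fcgr1 was not tested.

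The remaining interferon-inducible members act in metabolism or have a less certain role. Rtp4, a receptor-transporting protein, read 43.1, 0.740 and 1.05, 41.1-fold higher in the DNase II-deficient array than in wild-type. Cmpk2, a mitochondrial nucleotide kinase, read 4.15, 0.613 and 0.595. Ch25h, which makes 25-hydroxycholesterol, read 3.97 in the DNase II-deficient array and 0.176 in the double mutant and was under the floor in wild-type, at least 24.8-fold higher. Every one of them was near or under the array's typical level in the double-deficient and wild-type arrays. Tor3a, a torsin ATPase, read 1.14, 0.228 and 0.231, and Tdrd7 read 4.22, 1.24 and 1.24.

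**Figure D2:**
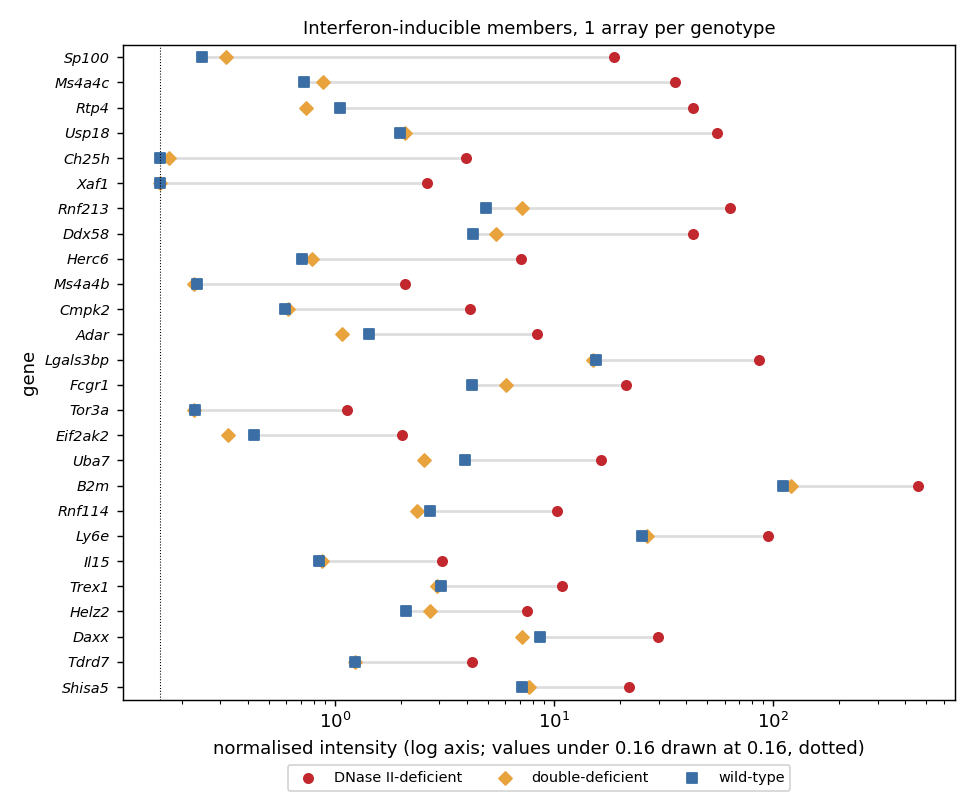
Normalised intensity (log axis) of the 26 interferon-inducible members in the DNase II-deficient (circle), double-deficient (diamond) and wild-type (square) arrays, ordered by the ratio of DNase II-deficient to wild-type. Sp100 is at the top with 76.1-fold and Shisa5 at the bottom with 3.08-fold; values under 0.16 are drawn at 0.16.

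Interferon genes of the list that were high without DNase II but missed the limit were 7 in number: Rsad2, Zbp1, Cd274, Xdh, Ms4a6b, Plac8 and Nampt. Rsad2, an antiviral enzyme, read 24.8, 0.319 and 0.181, so that a reading of 1.76 times wild-type in the double mutant kept it out although both arrays were dim. Zbp1, a sensor of Z-form nucleic acid, read 12.6, 0.566 and 0.192. Nampt read 21.1, 8.97 and 5.88, at 1.52 times wild-type the nearest of any probe outside the limit. None of the 5 measured p47 GTPases, which act against intracellular pathogens, was a member, although all 5 were at least 3-fold higher in the DNase II-deficient array. Irgm1 came nearest, with 57.1, 12.5 and 8.05. Chemokines and cytokines gave 1 member, Il15, among 11 of 24 measured genes that were at least 3-fold higher, beside 2.46% of all genes. Ccl5, one of the 10 others, read 11.1, 7.38 and 0.208.

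A group of 18 genes was linked to low oxygen or to glucose use. Their median level was 6.58 in the DNase II-deficient array, 1.21 in the double-deficient array and 0.912 in wild-type, and the median ratio of DNase II-deficient to wild-type was 4.98. A list of genes induced by low oxygen had 26 measured genes. Of these 9 were at least 3-fold higher in the DNase II-deficient array than in wild-type, beside 2.46% of all genes, and none 3-fold lower. In the double-deficient array 8 were at least 3-fold lower than in the DNase II-deficient array, where 1.46% of all genes were. Members were 7 of the 9: Adm, Bhlhe40, Bnip3, Ero1a, Hk2, Stc2 and Vegfa. The list's median log2 difference from wild-type was 1.26 in the DNase II-deficient array and 0.18 in the double mutant, beside -0.15 and -0.05 over all genes. That of the double mutant from the DNase II-deficient array was -0.97, beside 0.09.

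Secreted factors that act on vessels were among them. Adm, the vasodilator adrenomedullin, read 7.34 in the DNase II-deficient array, 0.497 in the double-deficient array and 0.438 in wild-type, 16.7-fold higher than wild-type. Vegfa read 17.6, 4.44 and 3.96, and Pgf, placental growth factor, which binds the receptor VEGFR1, read 3.55, 0.250 and 0.349. By choice none of the 3 exceeded 1.5 times wild-type in the double-deficient array, where Pgf read below wild-type. The stanniocalcins Stc1 and Stc2, secreted glycoproteins, read 1.80, 0.125 and 0.144, and 3.93, 0.411 and 0.282, with Stc1 under the floor in the double-deficient and wild-type arrays. Efna1, the membrane ligand ephrin A1, read 3.96, 0.682 and 0.656.

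Metabolic members included some enzymes of glycolysis and genes of glycogen synthesis. Hk2, hexokinase 2, which traps glucose in the cell, read 24.2, 9.33 and 7.95, Aldoa, aldolase A, read 27.6, 10.5 and 8.13, and Pkm, pyruvate kinase, read 31.1, 13.9 and 9.87. These 3 glycolytic enzymes had ratios to wild-type of 3.04 to 3.39, near the limit of the rule. Gys1, glycogen synthase, read 5.82, 1.54 and 1.13, and Ppp1r3g, which brings a phosphatase to glycogen, read 3.23, 0.874 and 0.626. Other glycolytic or transport genes of the list did not reach 3-fold, with Ldha at 303, 213 and 196, Pgk1 at 91.7, 53.6 and 36.7 and the glucose transporter Slc2a1 at 34.2, 32.4 and 40.0.

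Further members serve mitochondria, lipid stores and secretion. Bnip3, a mitochondrial protein of mitophagy and cell death, read 74.7, 19.1 and 15.6 and was the brightest of the group. Its relative Bnip3l, no member, was lower in both mutants, at 52.8, 68.3 and 83.7. Hilpda, which inhibits lipolysis at lipid droplets, read 26.2, 5.54 and 5.85, and Vldlr, a lipoprotein receptor, read 3.0, 0.814 and 0.696. Ero1a, the oxidase that drives disulfide formation, read 24.5, 7.77 and 6.59. The collagen-modifying enzymes Plod2 and Loxl2 read 1.78, 0.387 and 0.325, and 2.28, 0.776 and 0.635. Bhlhe40, a transcriptional repressor, read 8.70, 1.58 and 1.54.

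Apln and Ddit4, the 2 list genes that were 3-fold higher but missed the limit, read 6.05, 0.514 and 0.303, and 3.73, 1.14 and 0.701. Their double-deficient readings were 1.69 and 1.62 times wild-type. Of the 9 erythroid markers, whose sums are given above, Tfrc, the transferrin receptor, was higher in the DNase II-deficient array at 33.5, 17.7 and 18.6, while the others were lower there than in wild-type, such as Epb42 at 8.93, 28.1 and 32.5. The part of red cell supply in the low-oxygen genes was not tested.

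A set of 16 genes, on 17 probes, belongs to early responses, feedback on kinase signalling or small heat shock proteins. Their median level was 5.48 in the DNase II-deficient array, 1.85 in the double-deficient array and 1.51 in wild-type. No probe of this set was below wild-type in the double mutant. Fos and Junb, subunits of the AP-1 factor, read 1.29, 0.246 and 0.193, and 1.31, 0.394 and 0.344, all dim. Klf6, a zinc-finger factor, read 6.69, 1.85 and 1.64, and Ccn1, a secreted matrix protein, read 5.93, 1.58 and 1.13. Gem, a small GTP-binding protein, read 1.03 in the DNase II-deficient array, near the limit of 1, and was under the floor in wild-type. Of 27 measured genes on a list of immediate early and stress genes, 7 were at least 3-fold higher in the DNase II-deficient array, beside 2.46% of all genes, and Fos, Junb and Klf6 were the members. Jun, Atf3, Zfp36 and Gadd45b exceeded the limit in the double mutant, at 1.60 to 2.83 times wild-type, while Jund read 41.2, 38.3 and 41.6 and Dusp1 3.80, 4.22 and 4.36.

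Inhibitors of receptor and MAP kinase signalling were Dusp6, at 7.05, 2.24 and 1.51, Dusp4, at 1.83, 0.733 and 0.529, and Spry2, at 1.47, 0.514 and 0.414. Dusp6 lay at 1.48 times wild-type in the double mutant, just inside the limit. Rgs2, a regulator of G protein signalling, was the brightest of the set at 50.2, 21.0 and 15.0. Pde4b, a cyclic AMP phosphodiesterase, read 18.3, 6.16 and 4.4, and Plk2, a polo-like kinase, read 8.90, 2.65 and 2.07. Pim3, a kinase measured by 2 probes that both met the rule, read 13.4, 4.11 and 3.49 on the brighter one and 11.5, 4.26 and 3.78 on the other. The probes of Pim3 thus gave 3.83-fold and 3.04-fold, the second of them just inside the 3-fold limit. Rasd1 and Sik3 read 1.18, 0.508 and 0.339, and 5.48, 2.03 and 1.76.

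The small heat shock proteins Hspb1 and Hspb8 read 3.02, 1.0 and 0.779, and 5.03, 1.90 and 1.61. They were the only 2 of 14 measured heat shock and chaperone genes outside the left-out symbols to be 3-fold higher in the DNase II-deficient array. Of all genes 2.46% were. Others of the list were lower there, with Hspd1 at 90.4, 134 and 146 and Dnajb1 at 6.42, 8.15 and 12.7, and the list's median log2 difference from wild-type was -0.29.

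**Figure D3:**
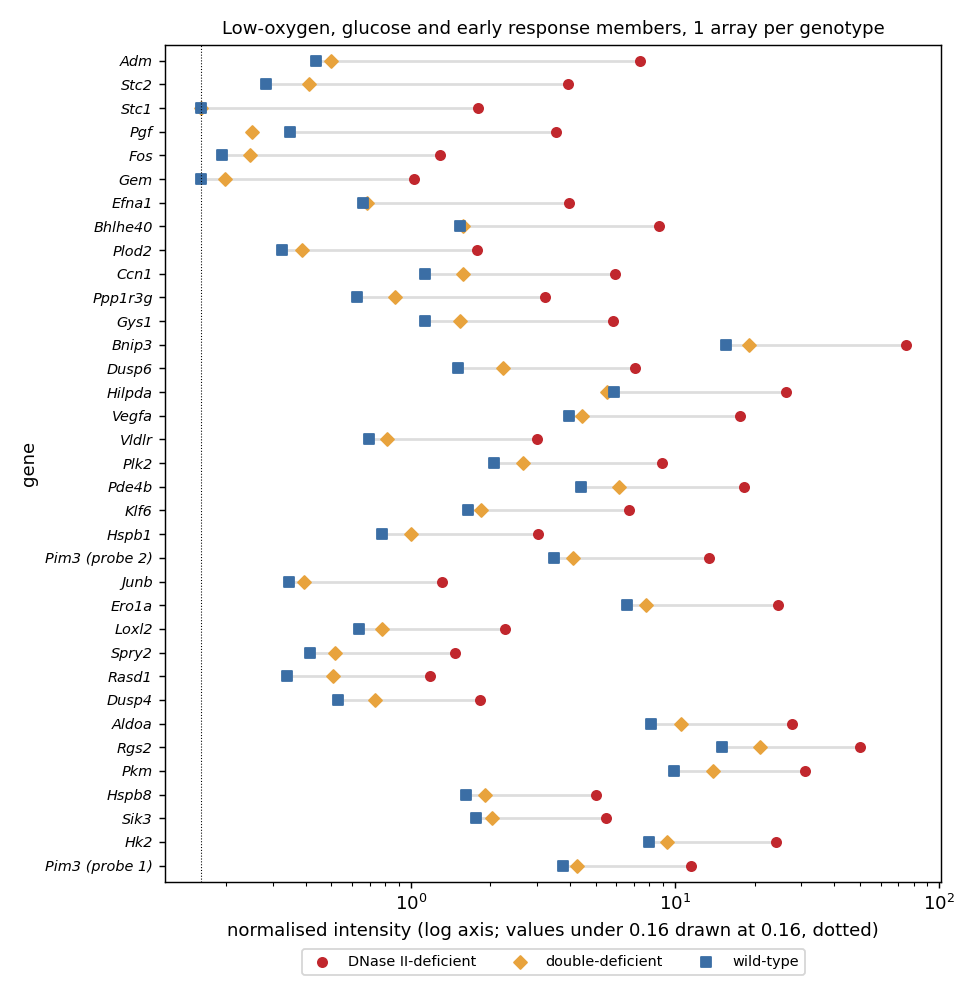
Normalised intensity (log axis) of the low-oxygen, glucose and early response members in the DNase II-deficient (circle), double-deficient (diamond) and wild-type (square) arrays, ordered by the ratio of DNase II-deficient to wild-type. Bnip3 is the brightest at 74.7 in the DNase II-deficient array, and both Pim3 probes are shown.

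Members of the stroma, vessels and mesothelium were 12 genes with a median ratio to wild-type of 3.69 and none above 4.95. Pdgfrb, the PDGF receptor of pericytes and stellate cells, read 4.11, 1.53 and 1.20 in the DNase II-deficient, double-deficient and wild-type arrays. The adhesion molecule Mcam read 7.22, 2.59 and 2.12, the potassium channel subunit Kcnj8 of pericytes 2.06, 0.369 and 0.436, and Col6a1, a collagen VI chain, 7.11, 2.17 and 1.79. Cd93, a receptor of endothelium and myeloid cells, was the brightest at 20.7, 5.76 and 4.41. Sox7, an endothelial transcription factor, read 2.46, 1.14 and 0.811, and Lrat, the retinyl ester synthase of stellate cells, 1.65, 0.477 and 0.360. Sparcl1, Akap12, Wt1, Spon1 and Cyp1b1 read between 1.12 and 7.6 in the DNase II-deficient array.

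The fixed markers of these cells gave unlike values. Of 11 measured mesenchymal and stellate markers, Pdgfrb and Lrat were the 2 at least 3-fold higher, beside 2.46% of all genes. The summed level of the 11 was 221.9, 166.7 and 150.1, most of it Col3a1 at 118, 84.5 and 76.0. Their median log2 difference from wild-type was 0.92 in the DNase II-deficient array and 0.35 in the double mutant. Over all genes it was -0.15 and -0.05. None of 9 measured endothelial markers was 3-fold different in either direction, and their sum was 45.11, 44.94 and 48.12. This sum hides opposite shifts. Esam read 13.4, 6.53 and 5.74, Pecam1 2.01, 0.925 and 0.775, and Emcn 1.93, 0.817 and 0.827 on its brighter probe. Stab2 went the other way, at 10.2, 22.1 and 23.0, as did the dimmer Tek, at 1.37, 1.82 and 1.94. Tie1 read 5.26, 4.97 and 5.01. Flt1 was under the floor in every array, and Kdr read 10.8, 7.56 and 10.6. Their part in the levels of the vascular members was not tested.

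Liver and metabolic genes numbered 9, with a median ratio to wild-type of 3.36. Asgr1, a subunit of the hepatocyte asialoglycoprotein receptor, read 8.35, 3.06 and 2.24, and Adh1, alcohol dehydrogenase 1, read 12.8, 3.09 and 3.82. Hsd11b1, which regenerates active glucocorticoid, read 4.63, 1.54 and 1.04, just inside the limit on the double mutant. Gch1, the first enzyme of tetrahydrobiopterin synthesis, read 7.14, 2.72 and 2.29, and C2, a complement component, read 3.61, 0.831 and 1.18. St3gal1, a sialyltransferase, read 17.0, 4.91 and 4.16, and Car13, a carbonic anhydrase, 17.8, 6.50 and 5.58. The amino acid transporter Slc7a2 and the lipid hydrolase Abhd2 read 1.97, 0.498 and 0.350, and 2.49, 0.801 and 0.829.

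The last 21 genes share no role. Linker histones H1f4 and H1f1 read 2.87, 0.369 and 0.363, and 2.01, 0.490 and 0.555, and lie 141 kb apart in a cluster on chromosome 13, where cross-hybridisation among copies was not tested. Klrk1, the receptor NKG2D of natural killer cells, read 2.03, 0.247 and 0.172. Of other lymphoid markers, Klrb1c, Cd3e and Cd8a were under the floor in every array, while others were above it and moved in different directions. Nkg7 read 1.34, 1.15 and 0.649, Cd79b 2.07, 1.74 and 1.29, and Cd79a 5.86, 7.29 and 9.08. Cd69, 1 of 15 measured markers, was 3-fold higher at 8.78, 4.18 and 1.7, beside 2.46% of all genes. The summed level of the lymphoid markers was 31.77, 22.99 and 22.68. Sp5, a transcription factor downstream of Wnt, read 1.63, 0.169 and 0.346 and had the lowest double-deficient over wild-type ratio of all members, 0.488. The other 4 of the lowest 5 ratios were those of Uba7, C2, Rtp4 and Pgf, from 0.648 to 0.715. Il17rb, Plac1, Cacna1h, Tctex1d2, Sv2a, Gsc, Plekha4, Cpeb4, Tmem45a and the clone-named 2310022B05Rik read between 1.24 and 5.61 in the DNase II-deficient array, at 3.05 to 4.77 times wild-type.

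Several of the highest ratios belonged to genes known from other tissues. Vmn1r41, a vomeronasal pheromone receptor, read 13.3 in the DNase II-deficient array, 0.206 in the double-deficient array and under the floor in wild-type, at least 83.2-fold higher, the largest bound of all. Tcstv1, known from the cleavage embryo, read 2.68 and was under the floor in the other arrays, as were the heart ligand Bmp10, at 1.05, and the clone-named 4930578I06Rik, at 2.42. Each of Vmn1r41, Tcstv1 and Bmp10 rests on 1 probe, and whether the probe reports the named gene was not tested.

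Probes that the rule did not pick gave a second reading for some members. Of the 102 genes 90 had a single probe and 12 had several, and in 10 of these 12 at least 1 probe failed the rule, 11 probes in all. Of the 11, 9 did not exceed 1 in the DNase II-deficient array, and the other 2 did but were under 3-fold. None of the 11 reached 3-fold, the highest ratio to wild-type being 2.99, for Vldlr. Thrb, the thyroid hormone receptor beta, read 7.18, 0.341 and 0.421 on the chosen probe, 17.0-fold higher, but 0.518, 0.749 and 0.694 on a second and under the floor in every array on the remaining one. Myoz3, a muscle Z-disc gene, read 1.71 on the chosen probe, which was under the floor in the other arrays, and 1.68, 1.19 and 1.26 on a second. The second probes of 4930578I06Rik and Lrat were under the floor in every array, and those of Rgs2 and St3gal1 read 0.214 and 0.196 in the DNase II-deficient array. That of Wt1 read 0.357, 0.327 and 0.342. Eif2ak2 and Vldlr kept the direction on their dimmer probes, at 0.820, 0.305 and 0.408, and 0.733, 0.370 and 0.245. The second probe of Shisa5 read 3.55, 2.14 and 2.42, 1.47-fold higher. Klhl24, a ubiquitin ligase adaptor, met the rule on both probes, with 2.19, 0.764 and 0.539 on the brighter.

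**Figure D4:**
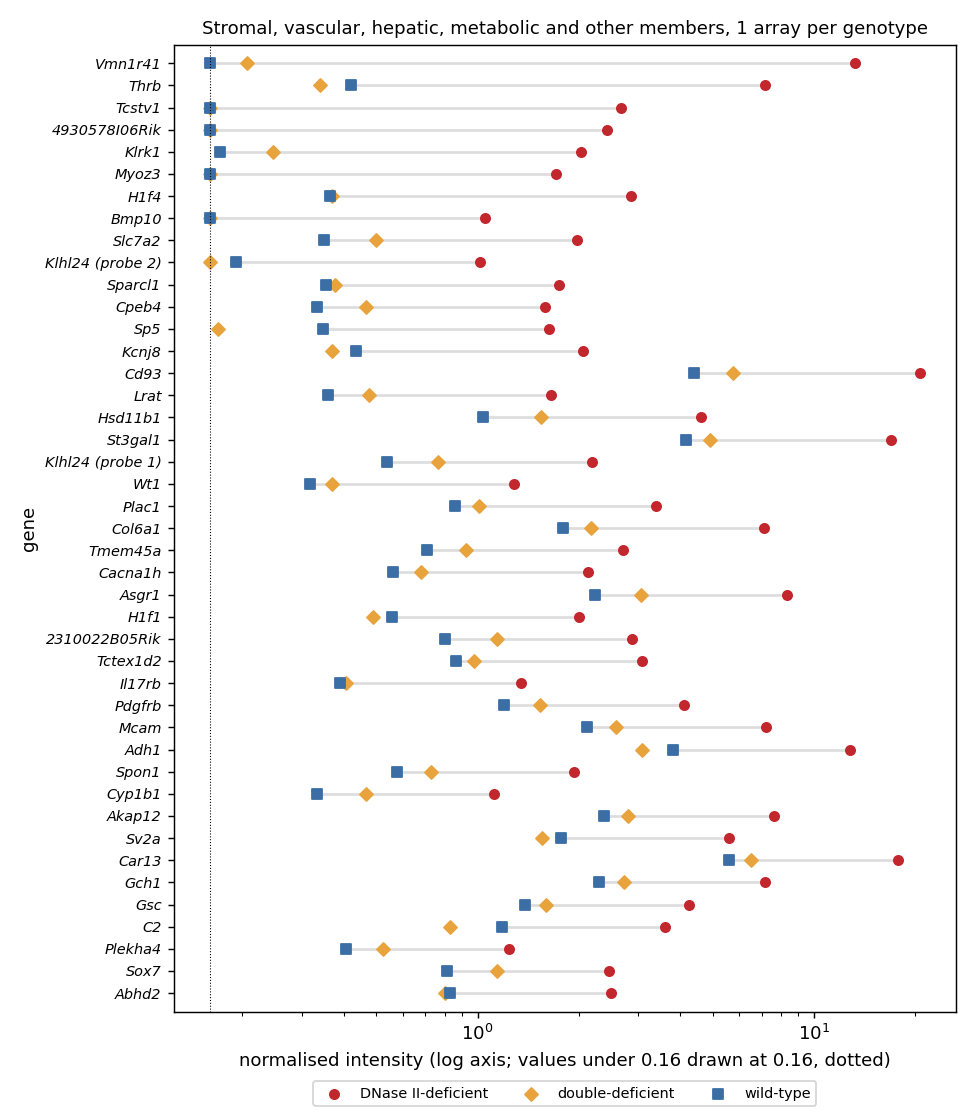
Normalised intensity (log axis) of the stromal, vascular, hepatic, metabolic and other members in the DNase II-deficient (circle), double-deficient (diamond) and wild-type (square) arrays, ordered by the ratio of DNase II-deficient to wild-type. Vmn1r41 is at the top with 13.3, and genes at the dotted line were under 0.16.

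In the comparison of double-deficient with DNase II-deficient arrays the choice of members forces a difference of at least 2-fold, and 76 of the 104 probes reached 3-fold lower, beside the 1.46% of all genes given above. In the comparison of double-deficient with wild-type, 21 probes were lower in the double mutant, 77 higher and 6 at the floor in both, beside 57.4% of measured probes that were lower. By group, 10 of 26 interferon-inducible probes, 2 of 18 low-oxygen and glucose probes and 0 of 17 early response probes were lower. The limit of 1.5 was set on this very ratio, so nothing is read from these shares. All 3 comparisons share arrays, and a low wild-type reading raises both ratios to it.

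Near the limits the values formed a continuum. Abhd2, Sox7 and Hk2 were just inside the 3-fold limit at 3.01, 3.03 and 3.04, and Lgals9, Fbp1 and Tgfb3 just outside at 2.99, 2.98 and 2.97. Rasd1, Dusp6 and Hsd11b1 were just inside the limit on the double mutant at 1.5, 1.48 and 1.48 times wild-type, and Nampt, Ccn2 and Irgm1 just outside at 1.52, 1.53 and 1.55. Klhl24, Gem and Bmp10 were the dimmest inside at 1.02, 1.03 and 1.05 in the DNase II-deficient array, and Gm2a, Spry4 and Slc7a3 the brightest outside at 0.974, 0.954 and 0.948.

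**Figure D5:**
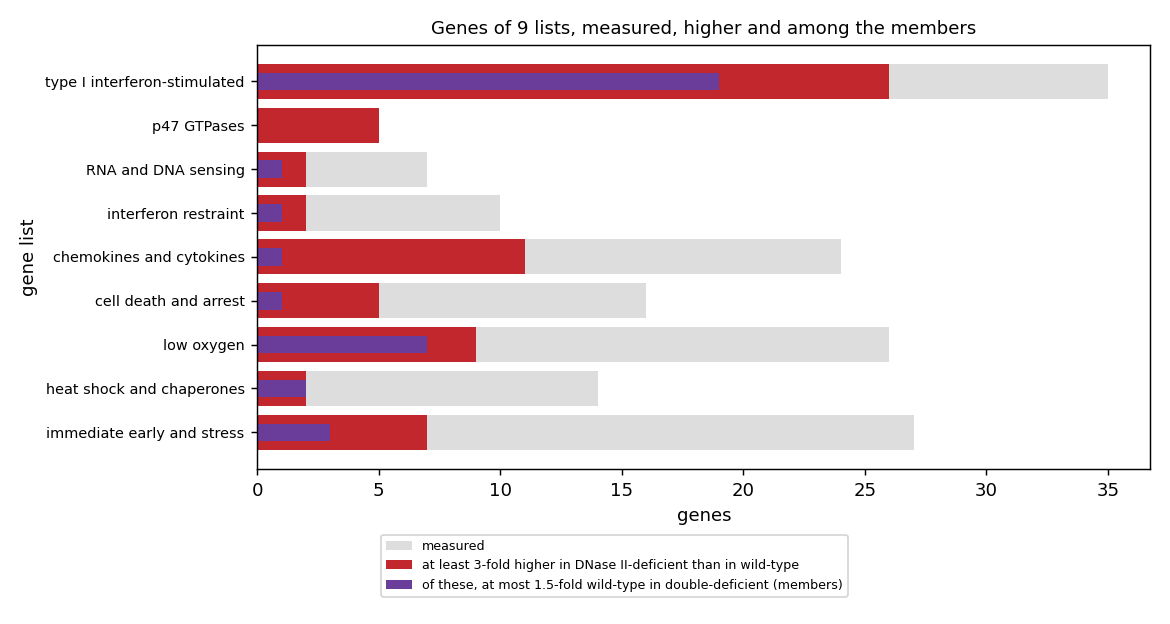
Number of genes (x) in each of 9 gene lists that were measured (grey), at least 3-fold higher and above 1 in the DNase II-deficient array (red), and also at most 1.5 times wild-type in the double-deficient array, that is members (purple). The interferon-stimulated list holds 35, 26 and 19 genes and the low-oxygen list 26, 9 and 7, while chemokines and cytokines hold 24, 11 and 1.

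The members are spread over the genome. All 102 matched a gene of the reference by Entrez identifier, on 20 chromosomes with at most 9 on any. Besides the pairs named above, Sox7 and 4930578I06Rik lie 20.4 kb apart on chromosome 14, Gys1 and Plekha4 69.7 kb apart on chromosome 7, and Sv2a and Fcgr1 87.7 kb apart on chromosome 3.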

How the data were processed

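Poly(A) RNA of fetal liver was hybridised to Uniset Mouse 20K arrays, 1 array per genotype, and images were read in CodeLink software; the labels state no version, background method or filter. The deposited values are intensity on a linear scale, normalised by the authors by a method not given in the sources used here. Array medians lie near 0.96, so a difference in total RNA is hidden and each level is relative to the array's typical probe. Of 20289 probes, 125 lacked a value and were left out. Symbols come from the platform annotation, which can be old: 15120 probes had 1 symbol, 38 several and 5131 none. Values were raised to 0.16 for ratios, and ratios against a value at 0.16 are lower bounds. A gene counted where any probe passed. List medians used each gene's brightest probe, and list counts required a level above 1. The members and the 18 lists were chosen with earlier results of these data known, and functional groups with the members in view. Named were, by rule, the 25 largest ratios, the 4 brightest of each group, the 5 lowest double-deficient ratios, the 3 probes nearest each limit on either side and genes whose probes disagree; list genes outside the members were the brightest of each list, and further names were added after values were seen. Alternatives were 2-fold and 5-fold limits, other limits on level and double mutant, other floors, quantile, 75th percentile and cyclic loess scaling (limma 3.58.1), and the brightest probe alone. The choice was also run on simulated arrays, with the pattern planted only in probes above 1 in wild-type. Member probes had a wild-type median of 0.837, so that run cannot check the choice of the dimmer ones. It cannot stand in for replicate arrays either. Tools were Python 3.11.15, pandas 2.3.3 and R 4.3.3. With 1 array per genotype no test was run.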

Additional observations from a re-analysis of the deposited data

Results flagged for a closer look

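Among probes outside the comparisons, 19 with no gene symbol or with several met the same numbers as the members, a signal in data that no gene name could be given to. The brightest of them read 54.5 in the DNase II-deficient array, 1.08 in the double-deficient array and 1.52 in wild-type, 35.9-fold higher than wild-type. The largest ratio was that of another probe, which read 7.02 in the DNase II-deficient array and was under 0.16 in the others, at least 43.8-fold higher. Groups of 1 array leave no sample that could stand apart from its replicates.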

How the results depend on the processing

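Of 71 values under alternative settings 60 stayed within the limits set for them. The number of member genes, 102 as reported, was 304 with a 2-fold limit over wild-type, 36 with a 5-fold limit and 154 with double-deficient allowed to reach 2-fold wild-type; with quantile, 75th percentile and cyclic loess scaling it was 113, 121 and 121, of which 100, 97 and 95 were genes reported. Interferon list genes among the members, 19 as reported, were 11 with the 5-fold limit, and low-oxygen list genes, 7 as reported, were 11 with the 2-fold and 3 with the 5-fold limit. The low-oxygen list genes higher in the DNase II-deficient array were 14 at 2-fold, against 9, and those lower in the double mutant were 4 at 4-fold, against 8. The share of interferon list members with an interferon element core, 20.0% (3 of 15), was 0% in the 250 bases before the start alone. None of those 3 genes has a match that lies wholly before the start. The median log2 difference of all genes, DNase II-deficient minus wild-type, was -0.15 as deposited, -0.03 after 75th percentile scaling and 0.01 after cyclic loess, a reversal of sign by the scaling itself; every member probe stayed higher in the DNase II-deficient array under each scaling. Member probes lower in double-deficient than in wild-type were 18 to 21, and this and the all-gene median were added after seeing the data. No paired analysis was possible because each genotype has 1 array, and for the same reason no array could be left out. How far dim probes near 0.16 vary between arrays of a genotype could not be measured.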

Other observations

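Members on the cell death list were 1 of 16 measured genes, Daxx. Another 4, Casp1, Casp4, Pmaip1 and Cdkn1a, were at least 3-fold higher in the DNase II-deficient array, as were 2.46% of all genes. These 4 read 2.27 to 3.94 times wild-type in the double mutant. Casp4, an inflammatory caspase, read 7.28, 1.85 and 0.547 in the DNase II-deficient, double-deficient and wild-type arrays, and Cdkn1a, a cell cycle inhibitor, read 4.65, 1.45 and 0.551. Among genes that restrain interferon signalling, Usp18 was the member of 10 measured, and Socs1, an inhibitor of JAK kinases, read 2.65, 0.700 and 0.373, higher without DNase II but 1.88 times wild-type in the double mutant. Of 7 measured genes on the list for cytosolic sensing of RNA and DNA, 2 were at least 3-fold higher in the DNase II-deficient array, beside 2.46% of all genes. They were the member Ddx58 and Zbp1, which at 12.6, 0.566 and 0.192 exceeded the limit in the double mutant. Cgas, the sensor of cytosolic DNA, read 1.27, 1.20 and 1.09 and Sting1, its partner, 7.77, 8.61 and 4.73. The 4 measured megakaryocyte markers held no member and none was 3-fold higher.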
